A study of Rattus norvegicus with 120 samples.

Results

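The proteasome genes measured in these rat kidneys are described here over all 28 groups of the study. They were taken from the probe-to-gene table as the genes whose symbol begins with Psm, then a, b, c, d, e or g and a number, and that have a probe set carrying that symbol alone. Psmb8, Psmb9 and Psmb10, the subunits of the immunoproteasome, were left out by the same rule and serve only as a comparison. Where a gene had several such probe sets, the one with the highest mean over the 120 arrays was used. The rule gave 42 of 14217 genes with a probe set of their own, and all 42 passed the filter on dim genes that left 10663 genes for testing. Psmc3ip and Psme3ip1 are among the 42 by their symbols only. Psmc3ip codes for a meiotic recombination factor and Psme3ip1 for a protein that binds a proteasome activator, so neither is a subunit. Psmb6 and Psme3 are not among the 42 because their probe sets carry several symbols.

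The proteasome degrades proteins that have been tagged with ubiquitin. Its barrel-shaped core particle is made of outer alpha rings (Psma genes), which gate the channel, and inner beta rings (Psmb genes), which hold the cutting sites. A regulatory particle caps the barrel: its ATPase ring (Psmc genes) unfolds substrates, and its other subunits (Psmd genes) bind ubiquitin, remove it and hold the cap together. Psme1 and Psme2 form an activator ring that can replace this cap, and Psmg genes with Psmd5, Psmd9 and Psmd10 code for chaperones that help assemble the particles and are not part of the finished complex. Interferon is known to induce Psmb8, Psmb9, Psmb10, Psme1 and Psme2 together, which favours the production of peptides for antigen presentation. The other subunit genes are known to be raised together by the factor NRF1 when proteasome activity falls short.

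Kidney RNA was hybridized to Affymetrix Rat 230 2.0 arrays, with 1 array per male Sprague-Dawley rat, aged 5 to 7 weeks per the labels. Every rat was injected intraperitoneally once a day, with olive oil in the vehicle groups, and was killed 24 hours after the last of 1, 7, 14 or 28 doses. The drugs were the calcineurin inhibitors cyclosporine (CsA, 2.5 or 25 mg/kg) and tacrolimus (FK506, 0.6 or 6 mg/kg) and the mTOR inhibitor rapamycin (Rapa, 1 or 10 mg/kg). By its title the series looked for early markers of calcineurin inhibitor damage to the kidney. Until day 14 each group had 4 rats, apart from 3 given FK506 6 mg/kg for 14 days. At day 28 the vehicle group, the lower CsA dose and the higher FK506 dose had 5 rats each, the CsA 25 mg/kg group had 4 and the other 3 groups had 6. The labels name a separate rat for each array, and the same vehicle rats serve as controls for all 6 treatments of a day.

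Levels are given on the log2 scale after quantile normalization, changes are differences of group means on that scale, and the threshold for a call in limma was an adjusted p of 0.05. The median intensity of the arrays ran from 51.99 to 86.08. The lowest belonged to replicate 3 of CsA 25 mg/kg at day 28, which also held all 5273 zeros of the table (17% of its probe sets), and 1 of the 42 genes, Psmd12, is listed at 0 there. The hybridization controls, which report on the array and not on the kidney, had their lowest group means in FK506 6 mg/kg and Rapa 1 mg/kg at day 28 (9.14 and 9.66 on the log2 scale). The ratio of the Gapdh control at its 3-prime end to that at its 5-prime end, a measure of RNA quality on the log2 scale, ran from 0.28 to 0.85 over the groups. The 10 kidney tubule genes checked, from Slc34a1 to Aqp2, lay between the 76.6th and the 99.9th percentile of mean level. The samples are whole tissue, in which fewer cells of a type and less RNA per cell cannot be told apart.

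The promoters of 5 of the genes described below are shown first, and others, such as those of Psmb4, Psmc1 and Psmc5, are not. These 5 are given because the known regulators of this family act there. They run from 250 bases before to 50 bases after the start in RefSeq's annotation of GRCr8, and 38 of the 42 genes had an entry. The antioxidant response element core TGACNNNGC, to which NRF1 and NRF2 are known to bind, and the CCAAT box were searched on both strands. The core of the interferon-stimulated response element, taken as GAAA, any 2 bases and GAAA, was searched in the same way and was added after the values were seen. Capitals mark matches to any of these, and in Psmb2 a CCAAT match and a TGACNNNGC match share a base and form 1 run of capitals.
Psmb2, chr5:144254808-144255107, plus strand: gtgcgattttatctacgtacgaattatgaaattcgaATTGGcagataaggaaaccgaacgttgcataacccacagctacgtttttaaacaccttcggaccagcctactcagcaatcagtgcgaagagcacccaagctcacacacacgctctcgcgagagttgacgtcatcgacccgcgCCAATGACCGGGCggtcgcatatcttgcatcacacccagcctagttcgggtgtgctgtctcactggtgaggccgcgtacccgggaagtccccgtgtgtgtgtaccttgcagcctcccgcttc
Psmb7, chr3:42827421-42827720, minus strand: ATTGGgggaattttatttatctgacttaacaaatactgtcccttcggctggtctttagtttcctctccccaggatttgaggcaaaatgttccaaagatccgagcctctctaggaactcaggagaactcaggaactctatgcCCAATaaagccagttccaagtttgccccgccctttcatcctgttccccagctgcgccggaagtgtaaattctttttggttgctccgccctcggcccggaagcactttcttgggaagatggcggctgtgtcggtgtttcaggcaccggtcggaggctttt
Psme1, chr15:33038721-33039020, plus strand: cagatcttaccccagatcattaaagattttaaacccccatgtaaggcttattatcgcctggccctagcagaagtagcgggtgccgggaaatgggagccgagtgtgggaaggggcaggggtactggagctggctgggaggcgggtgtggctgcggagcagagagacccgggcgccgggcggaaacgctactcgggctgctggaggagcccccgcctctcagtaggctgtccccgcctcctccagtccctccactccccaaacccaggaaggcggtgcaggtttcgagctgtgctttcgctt
Psme2, chr15:33052702-33053001, minus strand: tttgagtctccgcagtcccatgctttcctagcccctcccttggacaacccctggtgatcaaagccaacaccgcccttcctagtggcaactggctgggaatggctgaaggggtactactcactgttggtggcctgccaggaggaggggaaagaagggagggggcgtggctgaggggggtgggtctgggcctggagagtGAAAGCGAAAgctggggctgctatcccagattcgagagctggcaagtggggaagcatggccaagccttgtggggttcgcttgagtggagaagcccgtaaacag
Psmg4, chr17:30923324-30923623, minus strand: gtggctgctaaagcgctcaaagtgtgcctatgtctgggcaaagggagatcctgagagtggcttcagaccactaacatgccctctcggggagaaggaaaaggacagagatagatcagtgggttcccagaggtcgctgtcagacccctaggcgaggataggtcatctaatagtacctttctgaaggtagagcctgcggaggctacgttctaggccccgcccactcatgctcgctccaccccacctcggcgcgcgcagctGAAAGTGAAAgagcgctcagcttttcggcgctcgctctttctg

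TGACNNNGC was present in 7 of the 38 promoters (18.4%) and in 12.2% of all 27457 promoters of the table. CCAAT was present in 19 of 38 (50%) and in 37.7% of all promoters. The interferon element core was present in 5 of 38 (13.2%), those of Psma4, Psmb3, Psmd7, Psme2 and Psmg4, and in 3.77% of all. In Psme2 it begins 53 bases before the start, and in Psmg4 at base 8 after it. The windows of Psme1 and Psmb4 hold none of the 3 patterns. Of the immunoproteasome genes, the window of Psmb10 holds the interferon element core at 2 places, that of Psmb8 at 1 and that of Psmb9 at none. These matches describe letters in a window and were not tested as binding sites.

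Proteasome genes were among the brighter probe sets, and they varied little. Their mean levels ran from 7.15 for Psmc3ip to 12.01 for Psma6, and 38 of the 42 lay in the top 25% of all genes by mean level. The median SD between rats of a group was 0.106, against 0.196 for all genes tested. Among genes of that top 25% it was 0.131, and for the 38 proteasome genes there 0.104. The steadiest member was Psmc2, an ATPase of the cap, with an SD of 0.059, and the least steady was Psmd12 with 0.502, which fell to 0.1 without the array that holds the zeros. Averaged over the 42 genes, the level of a group stayed between 10.01 in Rapa 1 mg/kg at day 7 and 10.10 in FK506 6 mg/kg and Rapa 1 mg/kg at day 1. Over the 120 arrays the genes moved together only weakly: the median correlation between 2 members, given as a description of points that share arrays and normalization, was 0.08 for levels and 0.09 for deviations from the group means.

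Over the 28 groups, 29 of the 42 genes differed between groups by limma's moderated F test, against 67.1% of all genes tested. The range of group means had a median of 0.29 over the members. In the 24 comparisons with vehicle, 43 of 1008 pairs of a gene and a comparison were called (4.27%), against 5.22% for all genes. Of the 43, 33 were higher and 10 lower. These calls are not independent, because the treatments of a day share their vehicle rats and genes recur, with 5 calls each for Psmb4 and Psmb1. Only 1 pair, Psmd12 under CsA 25 mg/kg at day 28, was beyond 0.5 on the log2 scale, a size that 4.7% of the pairs of all genes passed. The median change of the 42 genes stayed between -0.02 and 0.05 in all 24 comparisons, where that of all genes lay between -0.04 and 0.03. A total of 24 genes were called in none of them and 18 in at least 1 (42.9%), where 51.8% of all genes tested were called at least once. Among the top 25% by mean level these shares were 47.4% for the proteasome genes and 66.9% for all genes.

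**Figure D1:**
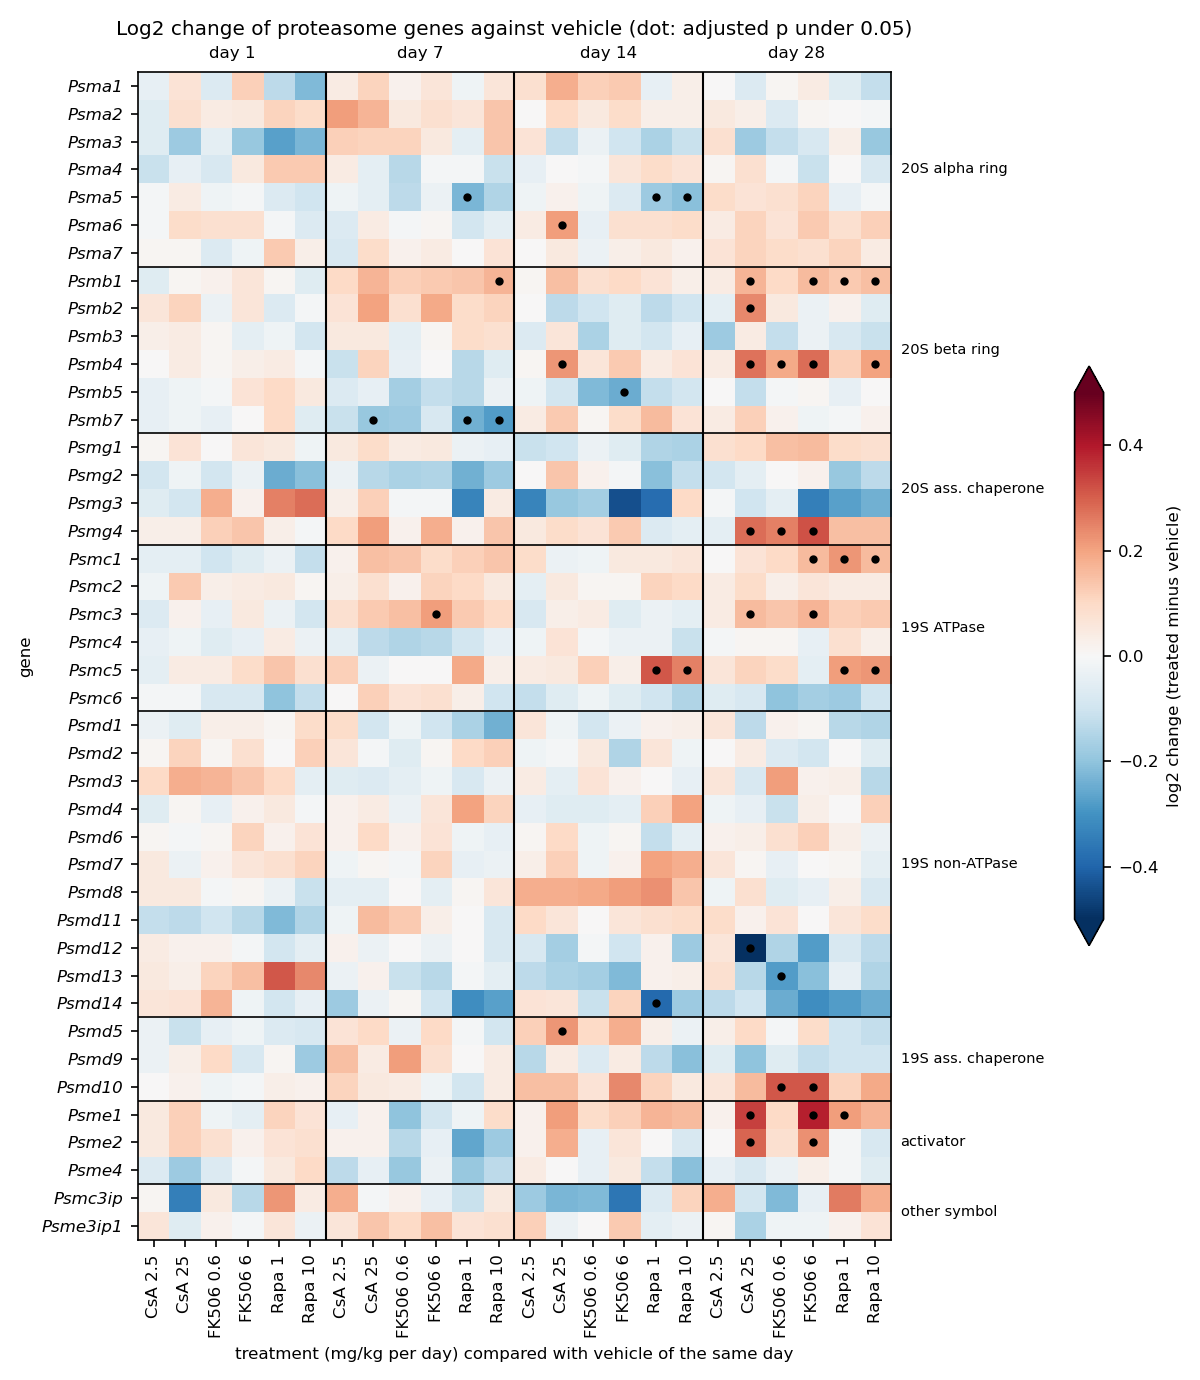
Log2 change of each of the 42 genes (rows, ordered by their place in the complex) in each of the 24 comparisons of a treatment with vehicle of its day (columns), with red for higher, blue for lower and a dot where the adjusted p was under 0.05. The 43 dots are spread over 18 genes, day 1 has none, and the colour scale ends at 0.5 in each direction, which only Psmd12 under CsA 25 mg/kg at day 28 (-1.54) passes.

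After a single dose no proteasome gene was called under any treatment. The share of all genes called was 0% for CsA 2.5 mg/kg, 0.675% for CsA 25 mg/kg, 0% for FK506 0.6 mg/kg, 0.0281% for FK506 6 mg/kg, 3.08% for Rapa 1 mg/kg and 2.82% for Rapa 10 mg/kg. In the same order, 0, 1, 0, 1, 6 and 7 of the 42 genes had an unadjusted p under 0.05 in limma, beside 2.31%, 6.66%, 3.52%, 6.24%, 15.5% and 14.5% of all genes.

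After 7 doses the calls were few and mostly downward. None was called for CsA 2.5 mg/kg (0% of all genes) or FK506 0.6 mg/kg (1.93%). CsA 25 mg/kg had 1 of 42 called, lower, against 3.97% of all genes, and FK506 6 mg/kg had 1, higher, against 3.20%. Rapa 1 mg/kg had 2, both lower, against 4.22%, and Rapa 10 mg/kg had 1 higher and 1 lower against 7.30%. As shares of the 42 genes these are 2.38% and 4.76%, near or under the background. In the groups without a call, 1 gene had an unadjusted p under 0.05 in limma for CsA 2.5 mg/kg (7.94% of all genes), and FK506 0.6 mg/kg had 10 such genes (15.2% of all genes). Among the groups with calls, CsA 25 mg/kg had 9 such genes (17% of all genes) and FK506 6 mg/kg had 6 (16.3%). Rapa 1 mg/kg had 14 of the 42 (17.2% of all genes) and Rapa 10 mg/kg had 9 (21.2%).

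After 14 doses 9 pairs were called. CsA 2.5 mg/kg had none (0.0656% of all genes) and FK506 0.6 mg/kg none (0.872%). At an unadjusted p under 0.05 in limma these groups had 1 and 3 members, beside 7.02% and 13.9% of all genes. Under CsA 25 mg/kg 3 genes were higher, against 7.89% of all genes, and under FK506 6 mg/kg, with 3 rats, 1 was lower, against 2.68%. Rapa 1 mg/kg had 1 higher and 2 lower against 9.05%, and Rapa 10 mg/kg 1 of each against 10.5%.

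After 28 doses 28 pairs were called, of which 26 were higher. CsA 2.5 mg/kg had none (0% of all genes), and 1 member had an unadjusted p under 0.05 in limma, beside 3.99% of all genes. CsA 25 mg/kg had 8 of 42 called (19%), against 21.1% of all genes: 7 were higher, against 10.5% of all genes in that direction, and 1 was lower, against 10.7%. FK506 6 mg/kg had 8, all higher, against 16.0% of all genes called, 8.73% higher and 7.29% lower. FK506 0.6 mg/kg had 3 higher and 1 lower (9.52%) against 4.33%, with 276 of all 10663 genes higher and 186 lower. Rapa 1 mg/kg had 4 higher against 9.85%, with 507 of all genes higher and 543 lower. Rapa 10 mg/kg had 4 higher against 15.7%, with 7.57% of all genes higher and 8.16% lower. The share of proteasome genes called was thus near that of all genes under CsA 25 and FK506 6 mg/kg and below it under Rapa 10 mg/kg. Among the top 25% by mean level, where 38 of the 42 lie, it was lower than that of all genes there under all 3: 21.1% against 29.2%, 21.1% against 25.3% and 10.5% against 27%. Under Rapa 1 mg/kg it was 10.5% against 18.1% there, and under FK506 0.6 mg/kg 10.5% against 7.17%. Within those calls the higher direction prevailed, and no test was made of these shares. Without the array that holds the zeros, 5 genes were called under CsA 25 mg/kg, beside 15.8% of all genes, and with the hybridization controls as a covariate 3 were called under FK506 6 mg/kg, where the share of all genes fell to 6.84%. Each of the 4 calls under FK506 0.6 mg/kg was lost without its replicate 2, and without replicate 1 of Rapa 1 mg/kg 1 gene was called there.

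**Figure D2:**
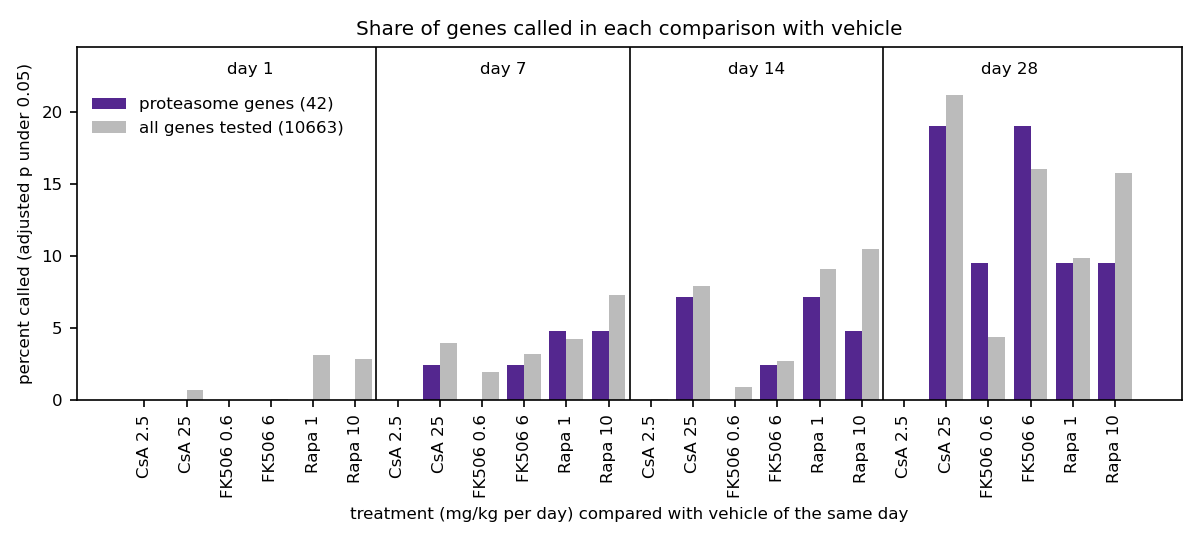
Percent of the 42 proteasome genes (purple bars) and of all 10663 genes tested (grey bars) that were called in each of the 24 comparisons with vehicle, grouped by day. Both kinds of bar are at or near 0 at day 1 and highest at day 28, where CsA 25 mg/kg has 19% of proteasome genes and 21.1% of all genes.

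Of the 7 alpha ring genes, Psma1 to Psma7, 4 differed over the 28 groups by the F test, beside 67.1% of all genes. The ranges of group means lay between 0.24 and 0.38 over the 7. Of these 7, 2 were called in any comparison with vehicle, beside 51.8% of all genes. They were Psma6, higher under CsA 25 mg/kg at day 14 (0.21 ± 0.06, SE, adjusted p = 0.0135), and Psma5, lower under Rapa. The rise of Psma6 was not called without quantile normalization (0.15, adjusted p = 0.128) or without vehicle replicate 3 (0.17, adjusted p = 0.0852). Psma5 at day 7 was 10.54, 10.70, 10.49 and 10.71 in the vehicle rats and 10.38, 10.28, 10.43 and 10.43 in the rats given Rapa 1 mg/kg. All 4 treated rats lay under all 4 vehicle rats, and the difference was -0.23 ± 0.06 (SE, adjusted p = 0.0139). At day 14 Psma5 was 10.62, 10.58, 10.62 and 10.50 with vehicle, 10.43, 10.44, 10.34 and 10.38 with Rapa 1 mg/kg, and 10.40, 10.38, 10.32 and 10.37 with Rapa 10 mg/kg. Neither Rapa group overlapped the vehicle rats, and the differences were -0.18 ± 0.06 (adjusted p = 0.0436) and -0.21 ± 0.06 (adjusted p = 0.0153). Under Rapa 10 mg/kg at day 7 the rats, at 10.44, 10.52, 10.41 and 10.48, overlapped the vehicle rats, and at day 28 the change was not called at either dose. When 1 rat was left out at a time, the fall under Rapa 1 mg/kg was lost in 3 of 8 fits at day 7 and in 6 of 8 at day 14, and that under Rapa 10 mg/kg at day 14 in 2 of 8, without vehicle replicate 3 or treated replicate 3.

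Among the beta ring genes, 5 of 6 were called at least once, as were 51.8% of all genes, and Psmb4 and Psmb1, structural subunits without a cutting site, made up 10 of the 15 calls. Psmb4 at day 28 was 11.68, 11.60, 11.51, 11.61 and 11.58 in the vehicle rats, 11.77, 11.80, 11.93 and 11.95 under CsA 25 mg/kg and 11.92, 11.69, 11.94, 11.90 and 11.93 under FK506 6 mg/kg. All 9 rats given a high calcineurin inhibitor dose lay above the 5 vehicle rats. The rises were 0.27 ± 0.06 (SE, 95% confidence interval 0.16 to 0.38, adjusted p = 2e-04) and 0.28 ± 0.05 (0.17 to 0.39, adjusted p = 5.57e-05), about 1.21-fold and 1.22-fold. FK506 0.6 mg/kg, with a lowest level of 11.70, a median of 11.74 and a highest of 12.05, was also above all vehicle rats (0.19 ± 0.05, adjusted p = 0.0142), a call lost without its replicate 2 or vehicle replicate 3. Rapa 10 mg/kg ran from 11.63 over a median of 11.82 to 11.89 and overlapped the vehicle range (0.20 ± 0.05, adjusted p = 0.00329). CsA 2.5 mg/kg, with 11.52, 11.66, 11.67, 11.66 and 11.68, did not differ beyond the spread (0.04, adjusted p = 1), and Rapa 1 mg/kg, from 11.61 over 11.75 to 11.80, was not called.
Psmb4 was already higher at day 14 under CsA 25 mg/kg, where the rats stood at 11.87, 11.84, 11.85 and 11.94 and the vehicle rats at 11.72, 11.66, 11.65 and 11.59 (0.22 ± 0.06, adjusted p = 0.00997). These groups did not overlap, but the call was lost without quantile normalization. The 3 rises of Psmb4 under CsA 25 mg/kg, FK506 6 mg/kg and Rapa 10 mg/kg at day 28 were called under each alternative processing and without any single rat of their groups; the omissions of treated rats from groups of 6 were added after the values were seen.

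Psmb1 rose in 4 of the 6 treatments at day 28, each time by little. Its vehicle rats stood at 11.38, 11.39, 11.43, 11.46 and 11.43, those given CsA 25 mg/kg at 11.48, 11.61, 11.65 and 11.60, and those given FK506 6 mg/kg at 11.60, 11.44, 11.64, 11.63 and 11.57. The changes were 0.17 ± 0.05 (adjusted p = 0.0105) and 0.16 ± 0.05 (adjusted p = 0.0152), and FK506 6 mg/kg overlapped the vehicle rats through its replicate 2. Rapa 10 mg/kg ran from 11.50 over a median of 11.56 to 11.65 (0.15 ± 0.05, adjusted p = 0.0127) and Rapa 1 mg/kg from 11.48 over 11.55 to 11.63 (0.13 ± 0.05, adjusted p = 0.0471), both above every vehicle rat. Without quantile normalization none of these 4 rises of Psmb1 was called, and that under Rapa 1 mg/kg was lost in 5 of 6 fits that leave out 1 treated rat. A rise at day 7 under Rapa 10 mg/kg (0.17 ± 0.05, adjusted p = 0.0361) rested on a low vehicle rat: the vehicle rats were at 11.31, 11.02, 11.41 and 11.48, the treated rats at 11.45, 11.45, 11.44 and 11.57, and without vehicle replicate 2 the change was 0.07 and not called.

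Psmb7 and Psmb5, which carry the trypsin-like and the chymotrypsin-like cutting sites, fell at single times and not at day 28. Psmb7 at day 7 was 10.93, 10.88, 10.92 and 10.84 with vehicle, 10.63, 10.75, 10.64 and 10.60 with Rapa 1 mg/kg and 10.54, 10.68, 10.64 and 10.62 with Rapa 10 mg/kg. No rat of either Rapa group reached the lowest vehicle rat. The falls were -0.24 ± 0.06 (adjusted p = 0.00473) and -0.28 ± 0.06 (95% confidence interval -0.39 to -0.16, adjusted p = 0.000491). CsA 25 mg/kg, at 10.73, 10.85, 10.62 and 10.65, overlapped the vehicle rats at 1 rat (-0.19 ± 0.06, adjusted p = 0.0381). The vehicle mean of Psmb7 was itself highest at day 7, at 10.90 ± 0.04 (SD, n = 4), against 10.77 ± 0.05 at day 1, 10.62 ± 0.10 at day 14 (n = 4 each) and 10.70 ± 0.04 at day 28 (n = 5).
The vehicle rats of day 7 had a Gapdh ratio of 0.76, where the Rapa groups of that day had 0.42 and 0.40 and CsA 25 mg/kg 0.44. With that ratio as a covariate the change of Psmb7 was -0.18 and not called under Rapa 1 mg/kg (adjusted p = 0.1), -0.21 and still called under Rapa 10 mg/kg (adjusted p = 0.0288) and -0.13 and not called under CsA 25 mg/kg.

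Psmb5 was lower at day 14 under FK506 6 mg/kg, at 11.19, 11.02 and 11.06 against 11.36, 11.37, 11.30 and 11.34 with vehicle (-0.25 ± 0.07, adjusted p = 0.0319). The groups did not overlap, but the call was lost in 5 of 7 fits that leave out 1 rat. At day 28 its changes were -0.12 under CsA 25 mg/kg, 0.01 under FK506 6 mg/kg and 0.00 under Rapa 10 mg/kg, none called. Psmb2, a structural beta subunit, was called against vehicle under CsA 25 mg/kg only: at day 28 the rats were at 11.07, 11.03, 10.92 and 10.91 and the vehicle rats at 10.87, 10.58, 10.81, 10.85 and 10.62 (0.24 ± 0.07, adjusted p = 0.0139). The groups did not overlap, and the call was lost without vehicle replicate 2 or 5 or treated replicate 1. Psmb3 was called in no comparison with vehicle.

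Of the chaperones that build the core particle, 3 were never called against vehicle, where 51.8% of all genes were called at least once. Psmg4 rose with both calcineurin inhibitors at day 28. The vehicle rats were at 9.53, 9.29, 9.47, 9.48 and 9.51 and those given CsA 25 mg/kg at 9.69, 9.74, 9.85 and 9.65, with no overlap (0.28 ± 0.07, adjusted p = 0.00287). FK506 6 mg/kg, at 9.96, 9.64, 9.63, 9.79 and 9.84, also lay above every vehicle rat (0.32 ± 0.07, adjusted p = 0.000468), a call that was lost with the hybridization controls as a covariate. FK506 0.6 mg/kg ran from 9.57 over a median of 9.67 to 9.91 (0.25 ± 0.07, adjusted p = 0.0141), a call lost without its replicate 2 or vehicle replicate 2. CsA 2.5 mg/kg was within the vehicle range or under it, at 9.40, 9.49, 9.47, 9.26 and 9.41. Both Rapa groups spread widely, from 9.36 over 9.61 to 9.84 at 1 mg/kg and from 9.35 over 9.65 to 9.79 at 10 mg/kg, and overlapped the vehicle rats without a call.

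Of the 6 ATPases of the cap, Psmc1, Psmc3 and Psmc5 were called against vehicle, where 51.8% of all genes were called at least once. Against vehicle, Psmc5 was called under Rapa alone. Psmc5 at day 14 was 9.52, 9.76, 9.75 and 9.62 with vehicle, 10.05, 10.03, 9.87 and 9.96 with Rapa 1 mg/kg and 9.89, 9.87, 9.99 and 9.90 with Rapa 10 mg/kg. Every Rapa rat lay above every vehicle rat (0.31 ± 0.07, adjusted p = 0.00282, and 0.25 ± 0.07, adjusted p = 0.0184). At day 28 the vehicle rats were at 9.73, 9.60, 9.73, 9.69 and 9.79, Rapa 1 mg/kg ran from 9.86 over 9.90 to 10.03 and Rapa 10 mg/kg from 9.84 over 9.93 to 10.04. Again the groups did not overlap (0.21 ± 0.06, adjusted p = 0.0199, and 0.22 ± 0.06, adjusted p = 0.00822). FK506 6 mg/kg at day 28, with 9.60, 9.66, 9.82, 9.69 and 9.50, was not called, and neither was CsA 25 mg/kg, with 9.87, 9.74, 9.86 and 9.82. Compared directly, CsA 25 and Rapa 10 mg/kg did not differ in Psmc5 by a call at day 14 or day 28. The direct difference of Psmc5 between FK506 6 mg/kg and Rapa 10 mg/kg was -0.28 ± 0.06 (adjusted p = 0.00129). With the hybridization controls as a covariate it was -0.23 and no longer called, and the controls' group mean was 9.14 for FK506 6 mg/kg and 10.72 for Rapa 10 mg/kg.

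Psmc1 also rose under Rapa at day 28, from 9.95, 9.92, 9.99, 9.89 and 9.96 in the vehicle rats to a range of 10.03 to 10.35 (median 10.14) at 1 mg/kg and of 10.02 to 10.18 (median 10.11) at 10 mg/kg. No rat of these groups overlapped the vehicle rats (0.22 ± 0.05, adjusted p = 0.000694, and 0.16 ± 0.05, adjusted p = 0.0122). FK506 6 mg/kg, at 10.17, 10.03, 10.09, 10.11 and 10.11, was higher by the same 0.16 ± 0.05 (adjusted p = 0.018), so the rise was not seen with Rapa alone, though with the hybridization controls as a covariate the FK506 call was lost. Psmc3 was higher at day 28 under CsA 25 mg/kg, at 10.42, 10.38, 10.48 and 10.64 (0.16 ± 0.06, adjusted p = 0.0231), and under FK506 6 mg/kg, at 10.50, 10.44, 10.61, 10.47 and 10.41 (0.17 ± 0.05, adjusted p = 0.0153). Its vehicle rats were at 10.21, 10.27, 10.35, 10.26 and 10.49, so 1 vehicle rat lay within both treated groups. The CsA call was lost in 5 of 9 fits that leave out 1 rat, replicate 3 with the zeros among them (0.16, adjusted p = 0.0503), and without quantile normalization. The FK506 call was lost without vehicle replicate 1 or treated replicate 3, in the fit to the day alone and with the hybridization controls as a covariate (0.12, adjusted p = 0.241). At day 7 Psmc3 under FK506 6 mg/kg was 10.44, 10.44, 10.42 and 10.57 against 10.33, 10.19, 10.25 and 10.27 (0.21 ± 0.06, adjusted p = 0.0283), without overlap, and with the Gapdh ratio as a covariate that change was 0.15 and not called. Psmc2, Psmc4 and Psmc6 were never called against vehicle.

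**Figure D3:**
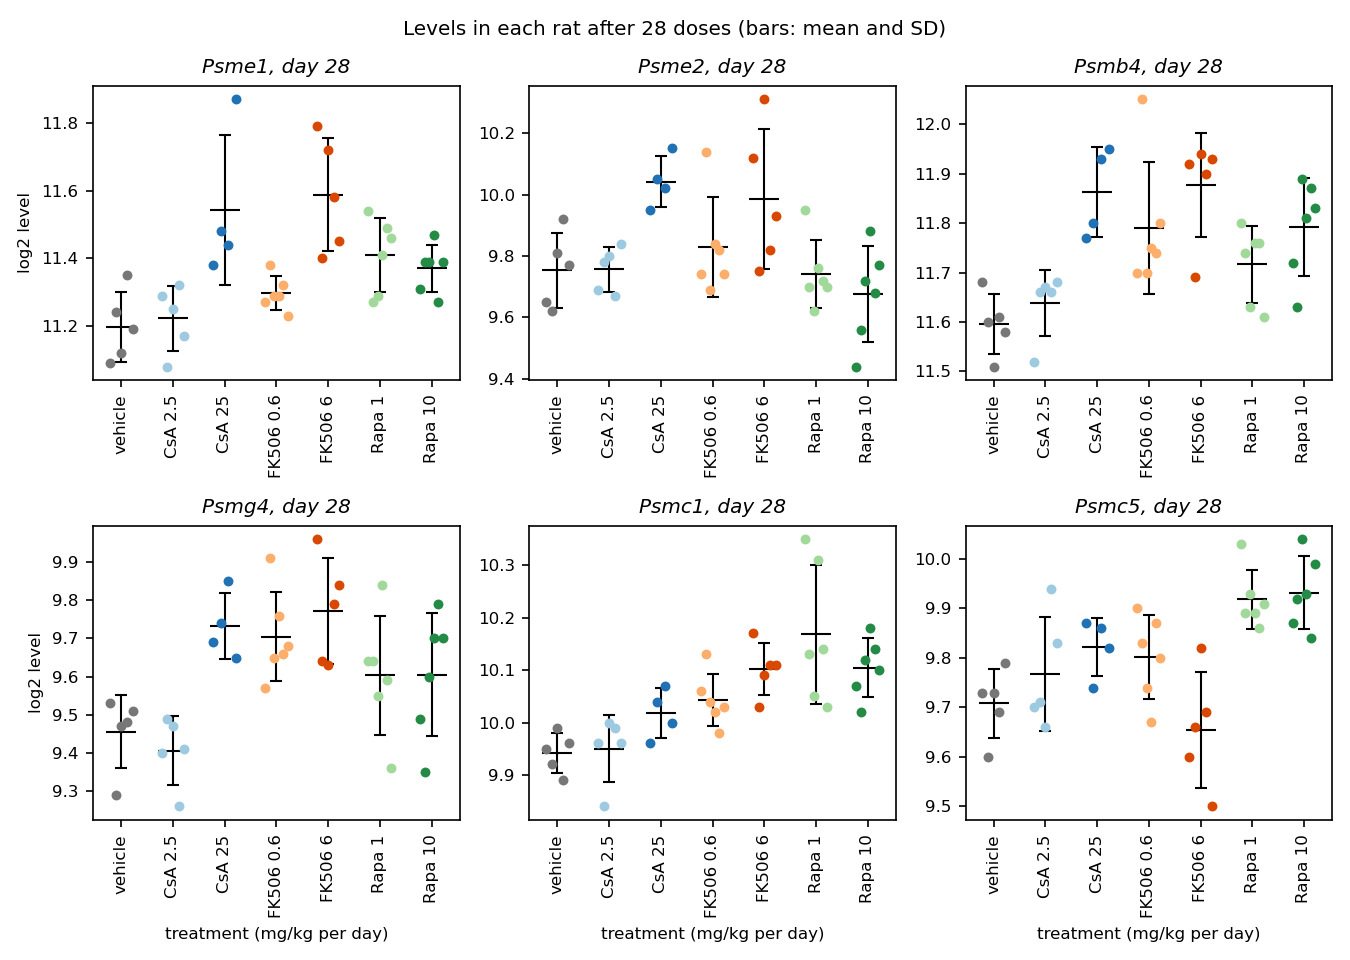
Log2 level of 6 genes in each rat after 28 doses (points), with the group mean and SD (bars), for vehicle and the 6 treatments in mg/kg per day. Psme1, Psme2, Psmb4 and Psmg4 are highest under CsA 25 mg/kg and FK506 6 mg/kg, while all Rapa rats for Psmc1 and Psmc5 lie above all vehicle rats.

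**Figure D4:**
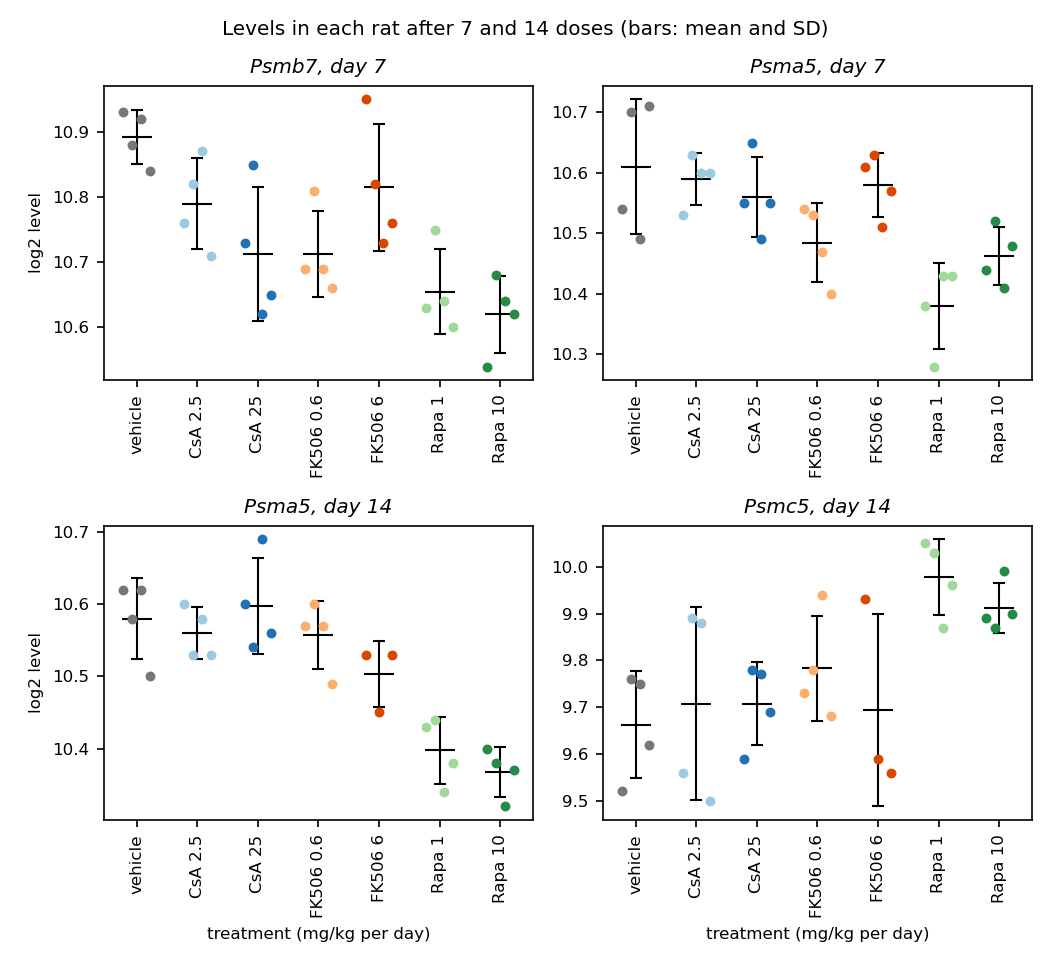
Log2 level of Psmb7 and Psma5 after 7 doses and of Psma5 and Psmc5 after 14 doses in each rat (points), with the group mean and SD (bars), for vehicle and the 6 treatments in mg/kg per day. The Rapa groups lie under vehicle for Psmb7 at day 7 and Psma5 at day 14 and above it for Psmc5 at day 14, with no overlap in these 3 panels.

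Of the 11 other subunits of the cap, 3 were called against vehicle, where 51.8% of all genes were called at least once. Each was called in 1 comparison, and each was lower. Psmd12, a subunit of the lid that holds the deubiquitinase in place, gave the largest change of all 42 genes, and it came from 1 array. At day 28 the rats given CsA 25 mg/kg were at 9.85, 9.83, 4.34 and 9.70 and the vehicle rats at 10.07, 10.01, 9.98, 10.00 and 9.79. Replicate 3, at 4.34, is the array with the zeros, where the deposited intensity of Psmd12 is 0. With it the change was -1.54 ± 0.33 (adjusted p = 0.00028), and without it -0.18 ± 0.08 (adjusted p = 0.0997), not called.
The same array touched another comparison of Psmd12. The rats given FK506 6 mg/kg had Psmd12 at 9.59, 9.80, 9.78, 9.67 and 9.63, of which 4 lay under all 5 vehicle rats and 1 just above the lowest. In the fit over all arrays this difference of -0.28 was not called, with a shared SD of 0.502 for the gene. Without that array the difference was -0.28 ± 0.07 (adjusted p = 0.00104). CsA 2.5 mg/kg, at 10.06, 9.91, 10.01, 10.06 and 10.12, was not called (0.06 ± 0.07 without the array), and the changes under FK506 0.6 mg/kg (-0.15), Rapa 1 mg/kg (-0.08) and Rapa 10 mg/kg (-0.13) were not called without it.

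Psmd13, another lid subunit, was lower under FK506 0.6 mg/kg at day 28, where it ran from 9.01 over a median of 9.10 to 9.17 against 9.63, 9.45, 9.18, 9.31 and 9.29 with vehicle. All treated rats lay under the lowest vehicle rat, by a narrow margin (-0.28 ± 0.09, adjusted p = 0.0443), and the call was lost under 5 of 10 alternatives. It was also lost in all 6 fits that leave out 1 treated rat and in 3 of 5 that leave out 1 vehicle rat. Psmd14, the deubiquitinase itself, was lower under Rapa 1 mg/kg at day 14, at 9.57, 9.41, 9.48 and 9.44 against 9.92, 9.81, 9.74 and 10.00 (-0.39 ± 0.13, adjusted p = 0.0455). That call was lost in 7 of 8 fits that leave out 1 rat. Psmd4, a ubiquitin receptor, Psmd1 and Psmd2, which form the scaffold of the base, and Psmd3, Psmd6, Psmd7, Psmd8 and Psmd11 of the lid were not called against vehicle.
Psmd11 has 2 probe sets beside the one used, and 1 of them did not follow it. Values of the other are not given here. The probe set used changed by 0.02 under CsA 25 mg/kg, 0.00 under FK506 6 mg/kg and 0.09 under Rapa 10 mg/kg at day 28, none called. The dimmer one that did not follow changed by -0.57 (adjusted p = 1.42e-05), -0.54 (adjusted p = 2.26e-05) and -0.60 (adjusted p = 8.48e-07) in a fit with all probe sets kept apart. In that fit it was also lower under FK506 0.6 mg/kg (-0.49, adjusted p = 0.000275) and Rapa 1 mg/kg (-0.43, adjusted p = 0.000837) but not under CsA 2.5 mg/kg (-0.04, adjusted p = 1). The probe-to-gene table gives no position for these probe sets within the gene, so which transcripts they measure was not tested.

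Among the chaperones of the cap, Psmd5 was higher under CsA 25 mg/kg at day 14, at 9.65, 9.72, 9.80 and 9.72 against 9.52, 9.47, 9.49 and 9.52 (0.22 ± 0.07, adjusted p = 0.0271). The groups did not overlap, but the call was lost in 5 of 8 fits that leave out 1 rat. Psmd10, also known as the oncoprotein gankyrin, was higher at day 28 under both FK506 doses, 0.31 ± 0.09 each (adjusted p = 0.0253 at 0.6 mg/kg and 0.0112 at 6 mg/kg). Its vehicle rats spread from 8.79 to 9.11 and overlapped both groups, at 8.95 to 9.56 for FK506 6 mg/kg and 9.03 to 9.64 for FK506 0.6 mg/kg. Neither call held in the fit to the day alone. That at 6 mg/kg was also lost with the hybridization controls as a covariate (0.24, adjusted p = 0.198) and without treated replicate 3, and that at 0.6 mg/kg without vehicle replicate 2 or 4 or treated replicate 2 or 6. Psmd9 was never called against vehicle with the probe set used.

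The activator genes Psme1 and Psme2 rose under the high doses of both calcineurin inhibitors at day 28, and Psme1 under FK506 6 mg/kg had the largest called rise of the 42 genes against vehicle. Psme1 was at 11.09, 11.24, 11.12, 11.35 and 11.19 in the vehicle rats, at 11.38, 11.48, 11.44 and 11.87 under CsA 25 mg/kg and at 11.79, 11.40, 11.72, 11.58 and 11.45 under FK506 6 mg/kg. All 9 treated rats lay above all 5 vehicle rats. The rises were 0.34 ± 0.07 (SE, 95% confidence interval 0.20 to 0.48, adjusted p = 0.000154) and 0.39 ± 0.07 (0.26 to 0.52, adjusted p = 9.19e-06), or 1.27-fold and 1.31-fold. CsA 2.5 mg/kg was at 11.29, 11.08, 11.25, 11.32 and 11.17 and FK506 0.6 mg/kg ran from 11.23 over 11.29 to 11.38, both overlapping vehicle and not called. Rapa 1 mg/kg ran from 11.27 over 11.44 to 11.54 (0.21 ± 0.06, adjusted p = 0.02, a call lost without its replicate 1 or vehicle replicate 1 or 3), and Rapa 10 mg/kg from 11.27 over 11.39 to 11.47, where the change of 0.17 was not called (adjusted p = 0.054).
Psme2 was at 9.65, 9.62, 9.81, 9.92 and 9.77 with vehicle and at 9.95, 10.05, 10.02 and 10.15 under CsA 25 mg/kg, without overlap (0.29 ± 0.09, adjusted p = 0.00875). Under FK506 6 mg/kg the rats were at 10.12, 9.75, 10.31, 9.82 and 9.93, of which 3 lay above all vehicle rats (0.23 ± 0.08, adjusted p = 0.0324). Under Rapa 10 mg/kg it ran from 9.44 over a median of 9.70 to 9.88, across and under the vehicle range, and was not called. The rises of Psme1 at both high doses and of Psme2 under CsA 25 mg/kg were called under each alternative and without any single rat of their groups. That of Psme2 under FK506 6 mg/kg was lost in 4 of 10 omissions (vehicle replicates 1 and 2, treated replicates 1 and 3). It was also lost with all probe sets kept apart and in the fit to the day alone. Psme1 has 1 probe set beside the one used, whose values are not given here. Psme4, which codes for a different, larger activator, was never called against vehicle.

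Of the 3 immunoproteasome genes left out by the rule, Psmb8 and Psmb10 were higher under both high calcineurin inhibitor doses at day 28 and Psmb9 under FK506 6 mg/kg, and none was called under Rapa 10 mg/kg. Psmb8, which replaces Psmb5 in the core, was at 7.33, 7.62, 7.21, 7.87 and 7.54 with vehicle, 7.77, 7.74, 8.48 and 8.56 under CsA 25 mg/kg and 9.14, 7.82, 8.09, 8.12 and 7.66 under FK506 6 mg/kg. The differences were 0.63 ± 0.21 (adjusted p = 0.0256) and 0.65 ± 0.20 (adjusted p = 0.0165), with overlap in both. Without replicate 1 of FK506 6 mg/kg, the rat at 9.14, the change there was 0.41 and not called (adjusted p = 0.185), and the CsA call was lost in 4 of 9 fits that leave out 1 rat. Psmb10, which replaces Psmb7, changed by 0.56 ± 0.17 (adjusted p = 0.00865) and 0.50 ± 0.16 (adjusted p = 0.0176). Psmb7 itself changed by 0.12 and -0.02, not called. Psmb9 changed by 0.48 (adjusted p = 0.0609) and 0.59 (adjusted p = 0.0142), and under Rapa 10 mg/kg Psmb8, Psmb9 and Psmb10 differed by -0.33, -0.13 and -0.17, none called. Without that same FK506 rat the differences of Psmb9 (0.31, adjusted p = 0.243) and Psmb10 (0.39, adjusted p = 0.0994) were not called either, so all 3 calls under FK506 6 mg/kg were lost without 1 rat. The difference between the change of 1 gene and that of another was not tested.
Of the 11 genes listed for the immunoproteasome and antigen processing, 9 were tested. Among all genes, 10.5% were higher under CsA 25 mg/kg at day 28 and 8.73% under FK506 6 mg/kg. Under CsA 25 mg/kg at day 28, 4 were higher and none lower, with a median change of 0.48 beside 0.01 for all genes, and under FK506 6 mg/kg 5 were higher and none lower, with a median of 0.50 beside 0.01. Irf1, an interferon-induced factor, was higher by 0.43 ± 0.16 (adjusted p = 0.0398) and 0.75 ± 0.15 (adjusted p = 0.000114). Under Rapa 10 mg/kg none was called and the median was -0.13.
Markers of macrophages and other myeloid cells, which carry immunoproteasomes, are given beside these genes. All 11 tested of 12 were higher under CsA 25 mg/kg at day 28, with a median change of 0.93, beside 10.5% of all genes. Under FK506 6 mg/kg 8 were higher, with a median of 0.74, beside 8.73% of all genes. Under Rapa 10 mg/kg 1 was higher and 1 lower, beside 7.57% and 8.16% of all genes. The log2 of the markers' summed level ran from 12.69 to 13.04 in the vehicle rats, from 13.21 to 14.13 under CsA 25 mg/kg, from 13.28 to 14.06 under FK506 6 mg/kg and from 12.65 to 13.42 under Rapa 10 mg/kg. At day 14 the markers were higher under CsA 25 mg/kg too (8 of 11, beside 7.89% of all genes called), when Psme1 and Psme2 were not called. At day 7 the log2 of their summed level ran from 13.49 to 13.75 under CsA 25 mg/kg and from 12.66 to 13.33 with vehicle. That of the immunoproteasome and antigen processing genes at day 7, from 13.59 to 13.70 under CsA 25 mg/kg, lay within the vehicle range of 13.55 to 13.78. At day 14 the summed level of these genes ran from 13.79 to 13.88 under CsA 25 mg/kg, above the vehicle range of 13.58 to 13.78. Of 7 T cell markers 3 were tested, and none was called under CsA 25 or FK506 6 mg/kg, while 2 were lower under Rapa 10 mg/kg. The part of these cells in the changes of Psme1 and Psme2 was not tested.

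**Figure D5:**
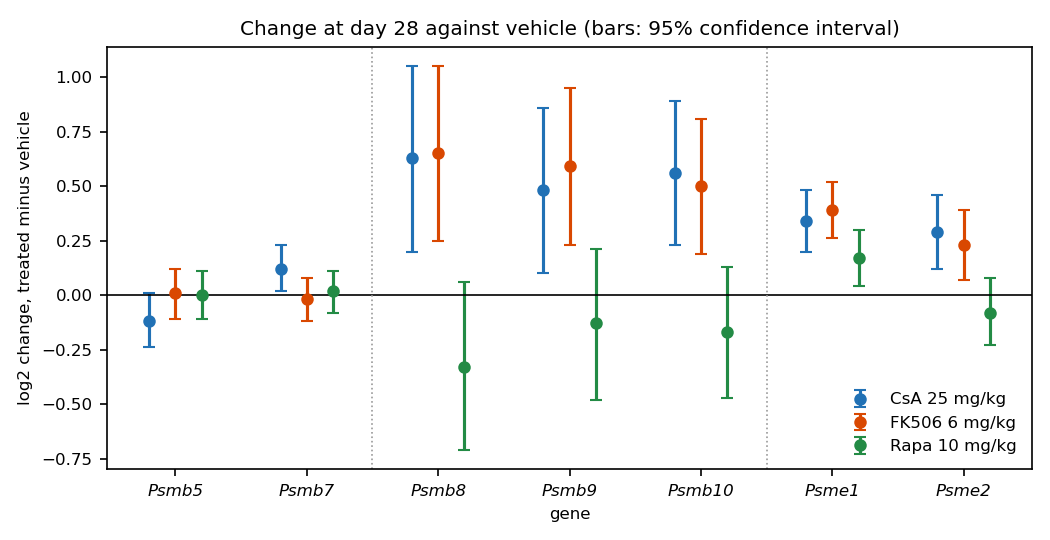
Log2 change at day 28 against vehicle with its 95% confidence interval, under CsA 25 mg/kg, FK506 6 mg/kg and Rapa 10 mg/kg, for constitutive cutting subunits (left), the immunoproteasome subunits (middle) and the activator genes Psme1 and Psme2 (right). Psmb5 and Psmb7 stay between -0.12 and 0.12, whereas the immunoproteasome subunits reach 0.65 and Psme1 0.39 under the calcineurin inhibitors. The value of 0.65, Psmb8 under FK506 6 mg/kg, was 0.41 without replicate 1.

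Compared directly, the drugs differed in a few of the 42 genes, in shares near or under those of all genes. Doses in mg/kg differ between the drugs. At day 7 CsA 25 and FK506 6 mg/kg differed in none (0.938% of all genes), FK506 6 and Rapa 10 mg/kg in Psmb7 (0.20 ± 0.06, adjusted p = 0.0182; 6.44%), and CsA 25 and Rapa 10 mg/kg in Psmd11 (0.24 ± 0.07, adjusted p = 0.0186; 9.43%). At day 14 the same 3 pairs of drugs differed in none (1.97%), in Psmd4 (-0.24 ± 0.08, adjusted p = 0.045; 9.41%) and in 6 genes (14.7%). Those 6 were Psma5, Psmc4, Psmd5, Psme2 and Psmg2, higher under CsA by 0.18 to 0.26, and Psmd4, lower by 0.25 on the log2 scale (-0.25 ± 0.08).
At day 28 FK506 6 and Rapa 10 mg/kg differed in 5 genes (11.0% of all genes). Psme2 (0.31 ± 0.08, adjusted p = 0.00326), Psme1 (0.22 ± 0.06, adjusted p = 0.0155), Psmd5 (0.21 ± 0.06, adjusted p = 0.0096) and Psmd6 (0.16 ± 0.05, adjusted p = 0.0322) were higher under FK506, and Psmc5 was lower. With the hybridization controls as a covariate 1 of the 42 genes was called, and 3.7% of all genes. CsA 25 and Rapa 10 mg/kg differed in 5 (19.9%): Psme2 (0.36 ± 0.08, adjusted p = 0.000534), Psmb2 (0.30 ± 0.07, adjusted p = 0.00121) and Psmd5 (0.22 ± 0.06, adjusted p = 0.00696) were higher under CsA, and Psme3ip1 (-0.24 ± 0.08, adjusted p = 0.0227) and Psmd12 were lower. CsA 25 and FK506 6 mg/kg differed in Psmb2 (0.27 ± 0.07, adjusted p = 0.0175) and Psmd12 (5.70%). With the hybridization controls as a covariate the difference of Psmb2 was 0.30 and not called (adjusted p = 0.0824; 0.91% of all genes), and it was lost without CsA replicate 1 or FK506 replicate 2 or 5. Both differences of Psmd12 rest on the array with the zeros, without which they were -0.05 against Rapa and 0.10 against FK506.
The levels of Psmd5 behind these differences were 9.87, 9.67, 9.67 and 9.66 under CsA 25 mg/kg, 9.61, 9.60, 10.03, 9.67 and 9.63 under FK506 6 mg/kg, and 9.32 to 9.58 with a median of 9.52 under Rapa 10 mg/kg. The Rapa rats overlapped neither group, and the vehicle rats, at 9.67, 9.55, 9.56, 9.78 and 9.53, lay across all 3. Without FK506 replicate 3, the rat at 10.03, the difference from FK506 was 0.13 and not called (adjusted p = 0.156), and without CsA replicate 1, at 9.87, that from CsA was 0.17 and not called (adjusted p = 0.0712). The difference of Psme1 between FK506 and Rapa was lost without FK506 replicate 1 or 3 and that of Psmd6 in 6 of 11 such fits, while those of Psme2 and Psmc5 were called in all 11.

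Between the doses of a drug, CsA gave the most differences. The higher dose was above the lower for Psmb4 at day 7 (0.22 ± 0.06, adjusted p = 0.0278; 2.55% of all genes called) and at day 14 (0.21 ± 0.06, adjusted p = 0.02; 5.57%). At day 28, 8 genes differed (18.4%): Psmg4 (0.33 ± 0.07), Psme1 (0.32 ± 0.07), Psme2 (0.29 ± 0.09), Psmb2 (0.28 ± 0.07), Psmb4 (0.23 ± 0.06) and Psmb3 (0.22 ± 0.07) were higher at 25 mg/kg, and Psma3 (-0.26 ± 0.10) and Psmd12 lower. The difference of Psmd12 was -1.60 with the array that holds the zeros. Without that array it was -0.24 ± 0.08 and still called (adjusted p = 0.0219). Leaving out 1 rat ended the call of Psma3 in 7 of 9 fits, of Psmb3 in 5 and of Psme2 in 1, without CsA 25 mg/kg replicate 4. For FK506 at day 28 Psme1 alone differed, higher at 6 mg/kg by 0.29 ± 0.06 (adjusted p = 0.00702; 1.62%), and without quantile normalization this difference was 0.20 and not called. For Rapa at day 28 no gene differed between 1 and 10 mg/kg (0.122% of all genes).

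The change from day 1 to day 28 of a drug's effect, itself tested as a difference of differences, was called for 1 gene per drug. The effect of FK506 6 mg/kg on Psme1 was larger at day 28 than at day 1 by 0.43 ± 0.10 (adjusted p = 0.00613; 3.30% of all genes called): after a single dose the vehicle rats were at 11.37, 11.34, 11.09 and 11.36 and the treated rats at 11.26, 11.25, 11.13 and 11.32. For Rapa 10 mg/kg it was Psmc1 (0.28 ± 0.07, adjusted p = 0.0106; 5.54%), which also differed between day 7 and day 1 (0.26 ± 0.08, adjusted p = 0.0365; 4.07%). After a single dose of Rapa 10 mg/kg Psmc1 was at 9.94, 9.98, 9.84 and 9.95 beside 10.14, 10.02, 9.97 and 10.06 with vehicle. Without quantile normalization the difference of Psmc1 between day 7 and day 1 was not called. The Gapdh ratio was 0.32 with vehicle and 0.73 with Rapa 10 mg/kg at day 1, and 0.76 and 0.40 at day 7. Its part in these differences was not tested. For CsA 25 mg/kg the gene was Psmd12 (-1.56, 4.97%), again through the array with the zeros, without which the value was -0.20.

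In the vehicle rats alone, few of the 42 genes changed with the day. Against day 1, Psmb1 (-0.21 ± 0.05, adjusted p = 0.0123) and Psmc3 (-0.19 ± 0.06, adjusted p = 0.0462) were lower at day 7, when 3.89% of all genes were called. Without the low vehicle rat named above, replicate 2 of day 7, the difference was -0.11 for Psmb1 (adjusted p = 0.273) and -0.16 for Psmc3 (adjusted p = 0.149), neither called. Of 8 fits that leave out 1 rat, Psmb1 was lost in 3 and Psmc3 in 6. At day 14 none was called (0.366% of all genes) and at day 28 none (2.08%), where 4 and 5 members had an unadjusted p under 0.05 in limma, beside 12.6% and 14.6% of all genes. The vehicle rats of day 7 also had the higher Gapdh ratio given above, 0.76 against 0.32 at day 1, and its part in these changes was not tested.

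Genes that work with the proteasome were called in both directions at day 28. For each list below, the shares of all genes called were 21.1% under CsA 25 mg/kg, 16.0% under FK506 6 mg/kg and 15.7% under Rapa 10 mg/kg. Of 11 proteasome-associated genes tested, 2 were higher and 1 lower under CsA 25 mg/kg, 2 and 2 under FK506 6 mg/kg and 2 and 1 under Rapa 10 mg/kg, with medians of 0.06, 0.02 and 0.00. Usp14, a deubiquitinase of the cap, was higher under FK506 (0.26 ± 0.07, adjusted p = 0.00832) and Rapa (0.21 ± 0.07, adjusted p = 0.0307). Adrm1, a ubiquitin receptor, was lower under both (-0.32 ± 0.12, adjusted p = 0.0481, and -0.48 ± 0.11, adjusted p = 0.0012), and Psmf1, a proteasome inhibitor, was higher under CsA (0.21 ± 0.07, adjusted p = 0.0173) and FK506 (0.24 ± 0.06, adjusted p = 0.00496).
Of 8 genes for regulators of proteasome genes, none was called under CsA, 1 was lower under FK506 (Ddi2, the protease that activates NRF1, -0.40 ± 0.11, adjusted p = 0.00705) and 1 was higher under Rapa (Maff, a partner of NRF1 and NRF2, 0.87 ± 0.23, adjusted p = 0.00332). Nfe2l1, which codes for NRF1, changed by 0.11, 0.29 and 0.19, not called. Among 7 NRF2 targets none was called higher, and 2 were lower under CsA, 2 under FK506 and 1 under Rapa, where 10.7%, 7.29% and 8.16% of all genes were lower. Gclc and Gclm, which make glutathione, were lower under CsA (-0.40 ± 0.07 and -0.30 ± 0.09) and FK506 (-0.20 ± 0.06 and -0.39 ± 0.08). Of 10 genes for ubiquitin and its enzymes, 1 was higher under CsA, 1 lower under FK506 and none called under Rapa. Of 11 for shuttle and extraction factors, 1 was lower under FK506 and none was called under the other drugs. Of 13 for degradation of endoplasmic reticulum proteins (ERAD), 3 were higher under CsA, 1 under FK506 and none under Rapa, with medians of 0.19, 0.03 and 0.02. Among all genes 10.5%, 8.73% and 7.57% were higher under these drugs.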

How the data were processed

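The data are 120 Affymetrix Rat 230 2.0 arrays of kidney RNA, each from its own rat. The authors deposited 1 table of probe set intensity values on a linear scale, obtained with the GeneChip Operating Software per the labels' protocols. The algorithm, its version and the scaling target are not given in the sources used here. The values were taken as log2(intensity + 16) and quantile normalized. Genes were named from the platform annotation: of 31099 probe sets 20826 carry 1 symbol, 436 several and 9780 none, and 57 are controls. After the 25% dimmest genes (3554) were left out, 10663 genes were fitted in limma 3.58.1 (R 4.3.3) with 1 mean per group over all 120 arrays, 92 residual degrees of freedom and Benjamini-Hochberg adjustment over the genes of each comparison, two-sided. The script was tested on simulated data. The offset lowers the changes of dim genes, and quantile normalization removes shifts common to all genes. The number of arrays limits the precision.

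The 42 members and the gene lists were chosen with earlier results of these data known. Values in every rat are given for catalytic subunits, Psme1, Psme2, the members called most often and those with the largest called changes at the higher doses. Those of Psmb2, Psmc1, Psmd10, Psmd13 and Psmd14 were added after their values were seen. Alternatives changed the normalization, offset, dim filter, probe set choice, variance model, arrays and covariates. P-values rest on the spread between rats.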

Additional observations from a re-analysis of the deposited data

Results flagged for a closer look

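In 6 of the 52 sets of rat levels examined, 1 rat stood apart from the others of its group by Dixon's criterion, which chance alone meets in about 1 of 20 groups. Psmd12 was at 4.34 in replicate 3 of CsA 25 mg/kg at day 28, where the others were at 9.70 to 9.85. This is the deposited 0 described above. Psmb4 was at 11.69 in replicate 2 of FK506 6 mg/kg at day 28, below the others at 11.90 to 11.94. Psmg4 was at 9.29 in replicate 2 of vehicle at day 28, below 9.47 to 9.53. Psmd5 was at 9.87 in replicate 1 of CsA 25 mg/kg at day 28 (others 9.66 to 9.67), at 10.03 in replicate 3 of FK506 6 mg/kg (others 9.60 to 9.67) and at 9.32 in replicate 2 of Rapa 10 mg/kg (others 9.49 to 9.58).

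The effect of a drug differed between days, by a test of the difference in limma, for 3 genes. Psmd12 under CsA 25 mg/kg differed between day 28 and day 1 by -1.56 (adjusted p = 0.0391), Psme1 under FK506 6 mg/kg by 0.43 (adjusted p = 0.00613) and Psmc1 under Rapa 10 mg/kg by 0.28 (adjusted p = 0.0106). Psmc1 under Rapa 10 mg/kg also differed between day 7 and day 1, by 0.26 (adjusted p = 0.0365), a call lost without quantile normalization.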

How the results depend on the processing

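The calls against vehicle that held under all 10 alternatives and without any single rat of their groups were those of Psmb4 (CsA 25, FK506 6 and Rapa 10 mg/kg, day 28), Psme1 (CsA 25 and FK506 6 mg/kg, day 28), Psme2 and Psmg4 (CsA 25 mg/kg, day 28), Psmc1 (both Rapa doses, day 28), Psmc5 (Rapa 1 mg/kg at day 14, Rapa 10 mg/kg at day 28) and Psmb7 (Rapa 10 mg/kg, day 7). Of 79 called changes, 21 were lost without quantile normalization, 14 with the hybridization controls as a covariate and 6 without the array with zeros, where 1 more reversed. Of 43 called against vehicle, 15 were lost in fits to the day alone, 8 with all probe sets kept apart, 7 with the Gapdh ratio, 6 without the dim filter, 1 without arrays high in Alb and none with an offset of 1 or an intensity trend. For other counts the cause of a change was not tested.

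Without quantile normalization the members' median change was 0.01 for CsA 25 mg/kg and -0.04 for Rapa 10 mg/kg at day 7. The number of members called against vehicle became 1 for CsA 25 mg/kg at day 14, FK506 0.6 mg/kg at day 7 and Rapa 1 mg/kg at day 1, and 0 for FK506 6 mg/kg at day 14. Between the doses it became 0 for CsA at days 7 and 14 and for FK506 at day 28, and between FK506 and Rapa at day 14 it became 3. Without the array with zeros it was 5 for CsA 25 mg/kg at day 28, 1 for CsA against FK506 at day 28 and 0 for the change of the CsA effect since day 1, and the difference of Psmd12 between CsA and FK506 reversed to 0.10. With the hybridization controls it was 3 for FK506 6 mg/kg at day 28, 0 for CsA against FK506 and 1 for FK506 against Rapa at day 28, and 2 for CsA against Rapa at day 7. Fits to the day alone gave 0 for CsA 25 and FK506 6 mg/kg at day 7 and FK506 0.6 mg/kg at day 28, 5 for FK506 6 mg/kg and 2 for Rapa 1 mg/kg at day 28, and 1 for Rapa 1 mg/kg at day 1 and Rapa 10 mg/kg at days 7 and 14. Both without the dim filter and with all probe sets, counts were 0 for CsA 25 mg/kg at day 7 and 1 for Rapa 1 mg/kg at day 14 and Rapa 10 mg/kg at day 7, and with all probe sets 0 for FK506 6 mg/kg at day 14. With an intensity trend CsA 25 mg/kg had 2 and FK506 0.6 mg/kg had 1 at day 7. The Gapdh ratio gave 0 for CsA 25 and FK506 6 mg/kg and 1 for Rapa 10 mg/kg at day 7.

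With 1 rat left out, medians ran from 0.03 to 0.06 for CsA 25 mg/kg at day 7, -0.02 to 0.02 for FK506 0.6 mg/kg at day 1, -0.02 to 0.01 at day 7, 0.00 to 0.05 for FK506 6 mg/kg at day 14, and for Rapa 10 mg/kg -0.04 to 0.01 at day 7 and -0.05 to 0.00 at day 28. Counts ran from 0 to 3, 1 to 4 and 5 to 8 for CsA 25 mg/kg at days 7, 14 and 28, 0 to 1 and 0 to 5 for FK506 0.6 mg/kg at days 7 and 28, and 0 to 1 for FK506 6 mg/kg at days 7 and 14. They ran from 0 to 1, 1 to 3, 1 to 5 and 1 to 5 for Rapa 1 mg/kg at days 1, 7, 14 and 28, and 1 to 2, 1 to 3 and 4 to 7 for Rapa 10 mg/kg at days 7, 14 and 28. Between groups of day 28 they ran from 1 to 3 for CsA against FK506, 2 to 6 for FK506 against Rapa and 5 to 8 for the CsA doses, and from 0 to 2 for vehicle at day 7 against day 1. These omissions between groups, and those of treated rats in groups of 6, were added after the values were seen. The difference of Psmd12 between CsA and FK506 ran from -1.73 to 0.10. The lowest count for CsA 25 mg/kg at day 14 came without vehicle replicate 3, and that for FK506 0.6 mg/kg at day 28 without treated replicate 2. No paired analysis was possible because the rat numbers were given in accession order and pair no rats.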

Other observations

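Probe sets that carry several symbols were not used for the 42 genes, and those of Psmb6, Psma3 and Psme3 are given here. Psma3 also has a probe set of its own and is among the 42, while Psmb6 and Psme3 are not. The probe set shared by Psmb6, a cutting subunit, and Psmb6l1 changed at day 28 by 0.11 under CsA 25 mg/kg, 0.06 under FK506 6 mg/kg and -0.04 under Rapa 10 mg/kg, none called. A probe set shared by Psma3 and Psma3l changed by 0.11, 0.11 and -0.11, none called. Psme3, the nuclear activator, shares its 4 probe sets with Aoc3 and G6pc1, and none was called in these 3 comparisons.

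Second probe sets of other members also went apart from the one used, in a fit with all probe sets kept apart. For Psmd14 one changed by -1.07 under CsA 25 mg/kg at day 28 (adjusted p = 0.00263) and another by -0.62 under Rapa 10 mg/kg (adjusted p = 0.000476), where the one used was not called. For Psmd9 one changed by -0.67 under CsA 25 mg/kg (adjusted p = 0.0297).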
